A study of Homo sapiens with 2 samples.

Results

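The genes described here fold proteins in the endoplasmic reticulum (ER) or belong to the unfolded protein response, read on arrays of AsPC-1, a human pancreatic ductal adenocarcinoma (PDAC) cell line. The list held 41 genes, of which 39 had a probe set annotated to that 1 gene symbol, out of 19775 genes read on the arrays. Cells were transfected with siRNA against PGR, the progesterone receptor, or with control siRNA, and each condition has a single array without replicates. Both groups came from the same cell line, the labels name DMEM with fetal bovine serum for both, whereas the methods of the study name RPMI for AsPC-1, and the sources used here do not name the PGR duplex chosen for the array. The arrays hold 1 linear intensity per probe set, and where a gene had several probe sets the brightest on average stood for it. Genes entered if either value reached the signal floor of 97.9, the median intensity over every named probe set and both arrays, which kept 11614 genes and 38 of the 39 members, all of them with both values above the floor. Differences are log2(intensity + 1) on the array labelled PGR siRNA minus the same on the array labelled control. The members were proposed from this same contrast, so their differences are a description, and with 1 array per condition no test was possible.

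Secretory and membrane proteins enter the ER through the SEC61 channel and fold there with the help of chaperones, lectins and disulfide isomerases. Proteins that fail to fold are sent back to the cytosol for degradation. When unfolded protein accumulates, the sensors IRE1 (gene ERN1), PERK (gene EIF2AK3) and ATF6 act through the transcription factors XBP1, ATF4, CHOP (gene DDIT3) and cleaved ATF6. XBP1 and ATF6 are known for raising chaperone, disulfide isomerase and degradation genes, and ATF4 for raising CHOP and genes of amino acid supply. Pancreatic acinar cells carry a heavy load of secreted protein and depend on this response.

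PGR itself gave no usable level. The brighter of its probe sets gave 73.3 under the PGR siRNA label and 16.1 under the control label, and the other gave 4.80 and 1.53 in the same order. All 4 values lie below the floor and their order goes against the labels, so every direction that follows rests on the labels alone. Of 8 epithelial markers, 7 reached the floor on at least 1 array and 6 on both, among these EPCAM and the keratins KRT8, KRT18 and KRT19. CEACAM5 stayed below it, at 67.7 under the PGR siRNA label and 58.0 under the control label. CEACAM6 reached it under the control label alone, at 79.3 and 119.7 in the same order. MUC1 read 173.6 and 121.7 with its brightest probe set, and its other probe sets were below the floor. Of 8 acinar, islet, fibroblast, leukocyte and endothelial markers with a probe set, 6 stayed under the floor. COL1A1, a collagen, was above it on both arrays with its brightest probe set, which carries a mark of shared sequence. That probe set read 298.5 under the PGR siRNA label and 299.3 under the control label. Another COL1A1 probe set was above the floor on both arrays, with a difference of -0.25, and the rest were below it on both. PECAM1, an endothelial marker, read 93.2 under the PGR siRNA label and 162.6 under the control label, a difference of -0.80 with the first value below the floor, and its part in the results was not tested. Both arrays had the same trimmed mean of 500.1, with median intensities of 65.3 under the PGR siRNA label and 68.4 under the control label.

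The promoters of several members share a sequence known from genes of this response. The motif was defined on promoters of such genes, so its share among the members is a description and is not independent of how they were chosen. The ER stress response element (ERSE), a site bound by ATF6 together with NF-Y, was searched on both strands as CCAAT, 9 free bases and CCACG in RefSeq promoters of build GRCh38.p14, from 250 bases before to 50 bases after each start site. It was found in 8 of 37 members with a promoter, against 25 of 27305 genes in all (0.0916%). The related ERSE-II was searched on both strands as ATTGG, 1 free base and CCACG and was found in 3 of the 37 members, against 19 of 27305 genes (0.0696%). Neither spelling contains the other, and ERSE-II was added after the data were seen. The windows below are shown for 4 ERSE members and 3 ERSE-II members whose values are described in the next paragraphs, read along the gene from 5′ to 3′, with the fixed letters of the motif in capitals. Where CGTGG stands first, the motif lies on the opposite strand.
HSPA5: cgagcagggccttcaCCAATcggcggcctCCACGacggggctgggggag
CALR: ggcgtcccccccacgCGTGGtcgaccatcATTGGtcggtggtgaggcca
CRELD2: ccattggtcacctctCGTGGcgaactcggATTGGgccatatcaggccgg
XBP1: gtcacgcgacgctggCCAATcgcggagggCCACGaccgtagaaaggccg
HYOU1: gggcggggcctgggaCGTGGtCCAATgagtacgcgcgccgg
SDF2L1: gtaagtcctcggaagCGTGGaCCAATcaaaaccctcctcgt
HERPUD1: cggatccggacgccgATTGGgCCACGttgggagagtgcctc
All 7 windows lie upstream of the start site, outside the transcribed gene. The HSPA5 window is chr9:125241376-125241424 on the minus strand, and the CALR window is chr19:12938369-12938417 on the plus strand. The CRELD2 window is chr22:49918539-49918587 on the plus strand, and the XBP1 window is chr22:28800588-28800636 on the minus strand. The HYOU1 window is chr11:119057259-119057299 on the minus strand, the SDF2L1 window chr22:21642099-21642139 on the plus strand and the HERPUD1 window chr16:56932010-56932050 on the plus strand. The other members with an ERSE match were HSP90B1, with 2 matches, CANX, PDIA6 and ERO1B, and HYOU1 held a further ERSE-II match.

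Across the members, most read slightly higher on the array labelled PGR siRNA, and none was past 1.5-fold. The median difference was 0.17 on the log2 scale over 38 members, against 0.021 over all 11614 genes, whose mean was -0.00081. Differences ran from 0.47 for EIF2AK3 down to -0.47 for SEC24D. Of the 38, 28 were above 0 and 10 below, where 53.2% of all genes were above 0, as were 56.1% of 6569 other genes with at least the mean signal of the dimmest member. No member was at least 1.5-fold higher, where 3.65% of all genes were, and none at least 1.5-fold lower, where 4.72% were. Among the 6569 genes of at least that signal, 0.365% were 1.5-fold higher and 0.639% were 1.5-fold lower. At 2-fold, 1.11% of all genes were higher and 1.58% lower.

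**Figure D1:**
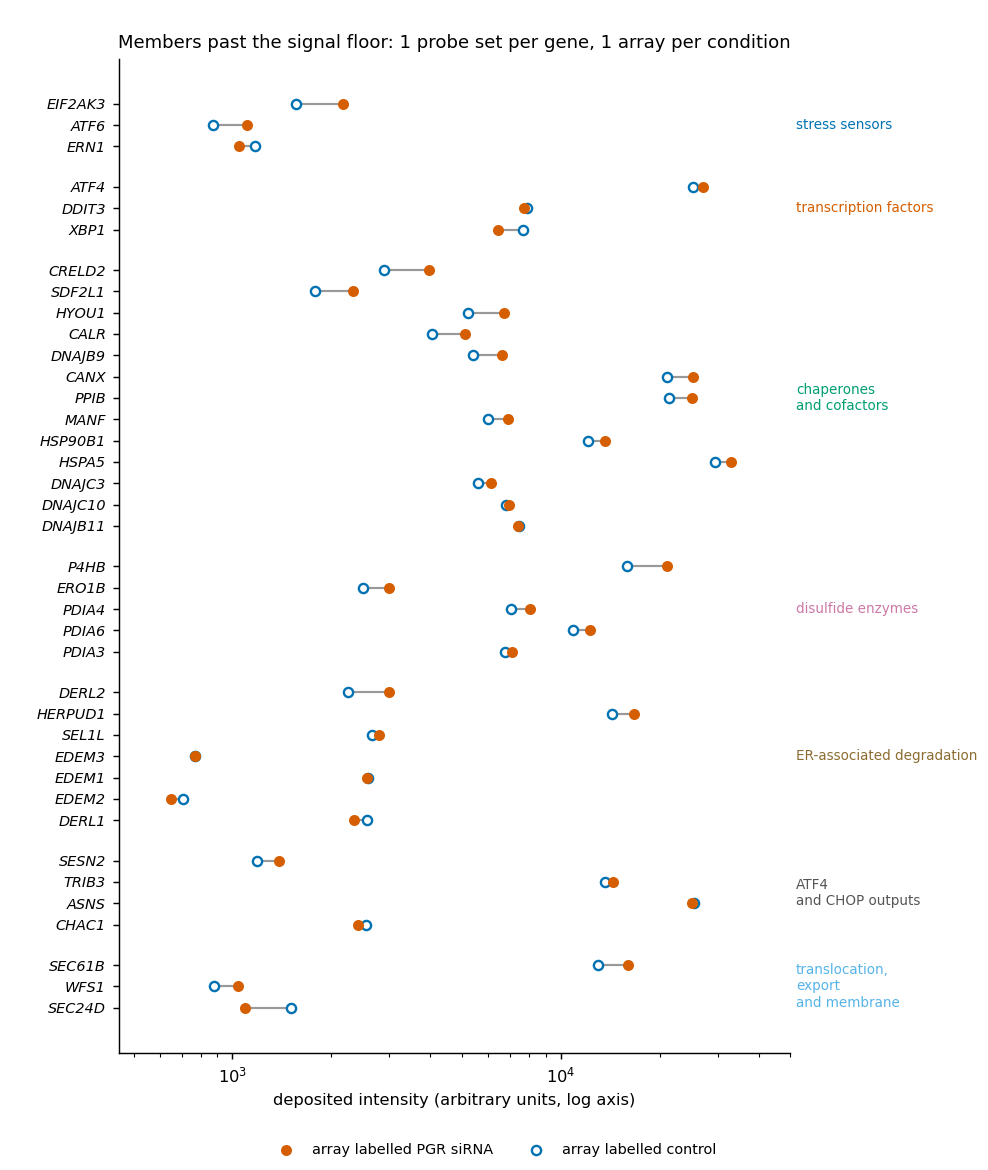
Deposited intensity (arbitrary units, log axis) of the probe set that reads each of 38 members, on the array labelled PGR siRNA (filled) and the array labelled control (open), grouped by role and joined by a line. Filled points lie to the right of open points for 12 of 13 chaperones and cofactors and for all 5 disulfide enzymes, while XBP1 and SEC24D run the other way.

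Bright genes as a whole tended to read higher on the array labelled PGR siRNA, so each member was also set beside genes of like signal. These were 200 other genes near in mean signal, taken evenly from both sides where possible. The middle 90% of their differences is called the band here. At the bright end HSPA5, ATF4 and ASNS shared the same set, which was therefore not centred on each of them. In the brightest of 4 ranges of mean signal, the 10 members had a median difference of 0.20, against 0.12 for other genes, of which 79.1% were above 0. In the dimmest range, mean log2 signals of 9 to 11, the 9 members had a median of 0.22 and the other genes of 0.024. With the like-signal median subtracted, the members' median was 0.10 and 24 of 38 were above 0, where 50.1% of all genes were. Above the band lay 9 members, where 5.5% of all genes did, and below it 2, where 5.41% did. The 9 were EIF2AK3, CRELD2, DERL2, P4HB, SDF2L1, HYOU1, CALR, SEC61B and DNAJB9, and the 2 were SEC24D and XBP1.

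**Figure D2:**
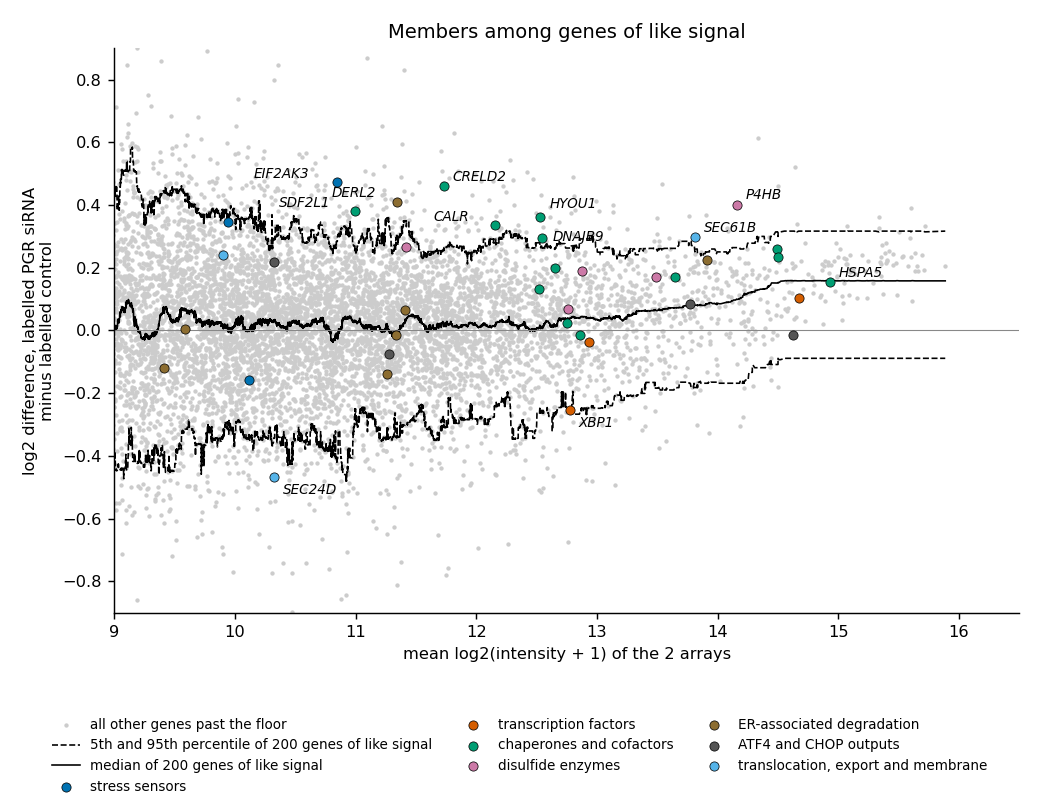
Log2 difference (array labelled PGR siRNA minus array labelled control) against the mean log2(intensity + 1) of both arrays, with members in colour by role and other genes in grey. The solid line is the median and the dashed lines the 5th and 95th percentile of the 200 genes of like signal. The axis stops at 0.9 in either direction. HSPA5 lies on the median line, which climbs at high signal, while CRELD2, HYOU1 and P4HB lie above the band and XBP1 and SEC24D below it.

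The 3 sensors did not share a direction. EIF2AK3, which encodes PERK, the kinase that slows translation through eIF2 alpha, read 2165 on the array labelled PGR siRNA and 1558 on the array labelled control, a difference of 0.47. No higher value occurred among the 200 genes of like signal. Its other probe set read 4.08 and 2.48 in the same order, far below the floor, so the value rests on 1 probe set. ATF6, a membrane-bound transcription factor freed by cleavage in the Golgi, read 1107 on the array labelled PGR siRNA and 871 on the array labelled control, a difference of 0.34 that lies just inside the band. All 4 ATF6 probe sets were above the floor and above 0, from 0.074 to 0.34. ERN1, which encodes IRE1, the kinase and nuclease that splices XBP1 mRNA, read 1050 on the array labelled PGR siRNA and 1172 on the array labelled control, a difference of -0.16 within the band. Its other probe set with both values above the floor gave -0.21. The other kinases of eIF2 alpha read 0.21 for EIF2AK4, known as GCN2, 0.056 for EIF2AK2, known as PKR, and -0.10 for EIF2AK1, known as HRI.

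XBP1, ATF4 and DDIT3 did not read above the median of genes of like signal. XBP1 read 6414 on the array labelled PGR siRNA and 7655 on the array labelled control, a difference of -0.26 that lies just below the band. A 3′ expression probe set does not separate spliced from unspliced XBP1 mRNA. The other XBP1 probe set read 2.26 and 26.8 in the same order, both below the floor, and averaging it in gave -1.67. With 500 genes of like signal in place of 200, 1 member lay below the band in place of 2. ATF4, the factor of the PERK branch, read 27077 on the array labelled PGR siRNA and 25178 on the array labelled control, a difference of 0.10 where the like-signal median was 0.16, and its sign turned to -0.031 with quantile normalization. DDIT3, which encodes CHOP, a factor tied to cell death under lasting stress, read 7714 on the array labelled PGR siRNA and 7911 on the array labelled control, a difference of -0.036, or 0.014 with median centring. XBP1 was thus the 1 member with a promoter ERSE whose difference was below 0.

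Chaperones and their cofactors were the largest group and stood at a median of 0.23 over 13 genes, with 12 above 0 and 5 above the band. Of all genes, 53.2% were above 0 and 5.5% above the band. After subtracting the like-signal median, the chaperone median was 0.12 and 10 of the 13 were above 0. CRELD2, an ER protein with disulfide isomerase activity secreted under stress, read 3980 on the array labelled PGR siRNA and 2893 on the array labelled control, a difference of 0.46. SDF2L1, a cofactor of BiP, read 2329 on the array labelled PGR siRNA and 1786 on the array labelled control, a difference of 0.38. HYOU1, the nucleotide exchange factor of BiP also known as GRP170, read 6706 on the array labelled PGR siRNA and 5223 on the array labelled control, a difference of 0.36. Each of these 3 genes has a single probe set and carries an ERSE or ERSE-II in the windows above. CALR, the lectin chaperone calreticulin, read 5118 on the array labelled PGR siRNA and 4052 on the array labelled control, a difference of 0.34. Its 3 probe sets ran from 0.17 to 0.34, and the 1 without a mark of shared sequence gave 0.26.

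HSPA5, which encodes BiP, the main HSP70 of the ER and a common marker of the response, read 32872 on the array labelled PGR siRNA and 29563 on the array labelled control, a difference of 0.15. The like-signal median at that brightness was 0.16, so HSPA5 did not stand above its neighbours, and it read -0.034 with quantile normalization. Its second probe set, far dimmer with 765 under the PGR siRNA label and 689 under the control label, gave the same 0.15. HSP90B1, the ER HSP90 also known as GRP94, read 13613 on the array labelled PGR siRNA and 12087 on the array labelled control, a difference of 0.17 within the band, and both of its probe sets carry a mark of shared sequence. CANX, the membrane-bound lectin chaperone calnexin, read 25224 on the array labelled PGR siRNA and 21073 on the array labelled control, a difference of 0.26 within the band. Its 4 probe sets above the floor ran from 0.14 to 0.26, while averaging in 1 more below the floor gave -0.44. MANF, a secreted stress protein, stood at 0.20, and PPIB, a prolyl isomerase of the ER, at 0.23 with a second probe set at 0.48.

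The J-domain cochaperones of BiP read less clearly. DNAJB9, known as ERdj4, read 6627 on the array labelled PGR siRNA and 5397 on the array labelled control with its brightest probe set, a difference of 0.30 above the band. Its other 2 probe sets, both above the floor, gave -0.18 and -0.25, and the 1 without a mark of shared sequence was the lower of them. The direction of DNAJB9 therefore depends on the probe set. DNAJC3, known as p58IPK, read 6142 on the array labelled PGR siRNA and 5603 on the array labelled control, a difference of 0.13, with its 4 probe sets from -0.17 to 0.28. DNAJC10, a reductase known as ERdj5, stood at 0.025 within the band, while its 3 other probe sets with both values above the floor gave 0.15, 0.21 and 0.25. DNAJB11, known as ERdj3 and the lowest of the group, read 7399 on the array labelled PGR siRNA and 7468 on the array labelled control, a difference of -0.013.

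All 5 disulfide enzymes read by a probe set were above 0 with the brightest probe set, at a median of 0.19. Among all genes, 53.2% were above 0. Subtracting the like-signal median left all 5 above 0, at a median of 0.15. P4HB, protein disulfide isomerase itself and also a subunit of collagen prolyl hydroxylase, read 21055 on the array labelled PGR siRNA and 15945 on the array labelled control, a difference of 0.40 above the band. Its 3 probe sets ran from 0.24 to 0.44. PDIA4, an isomerase with several thioredoxin-like domains, read 8048 on the array labelled PGR siRNA and 7052 on the array labelled control, a difference of 0.19, and its other probe set gave 0.52. PDIA6, an isomerase that also binds IRE1, stood at 0.17, and its 4 probe sets lay close together from 0.14 to 0.21. ERO1B, the oxidase that recharges disulfide isomerases, stood at 0.27 with a second probe set at 0.20. PDIA3, known as ERp57, the isomerase that works with calnexin and calreticulin, read 7093 on the array labelled PGR siRNA and 6770 on the array labelled control with its brightest probe set, a difference of 0.067, and gave -0.20 and -0.28 with the others. PDIA5 was not read, because no probe set was annotated to it alone.

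Genes of ER-associated degradation had a median of 0.0037 over 7 genes, with 4 above 0, where 53.2% of all genes were. Subtracting the like-signal median gave -0.0087, with 3 above 0. DERL2, a derlin of the retrotranslocation channel, read 2990 on the array labelled PGR siRNA and 2250 on the array labelled control, a difference of 0.41 above the band, and its other probe set gave 0.55. HERPUD1, which assembles the HRD1 ligase complex and holds the ERSE-II shown above, read 16657 on the array labelled PGR siRNA and 14264 on the array labelled control, a difference of 0.22 within the band. A second HERPUD1 probe set close to the floor, with 100.2 under the PGR siRNA label and 136.9 under the control label, gave -0.45. SEL1L, the adaptor of that ligase, stood at 0.067, with other probe sets above the floor at 0.16 and 0.40. The mannose-trimming EDEM1 and EDEM2 stood at -0.014 and -0.12. EDEM3, of the same family, read 770.0 on the array labelled PGR siRNA and 768.0 on the array labelled control, a difference of 0.0037, and its other probe sets gave -0.59 and 0.025. DERL1, another derlin and the lowest of the group, read 2340 on the array labelled PGR siRNA and 2577 on the array labelled control, a difference of -0.14, with probe sets above the floor from -0.16 to 0.27. DERL3 was below the floor on both arrays, and SYVN1, which encodes the ligase HRD1, was not read because no probe set was annotated to it alone.

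The genes downstream of ATF4 and CHOP stayed within the band, with a median of 0.035 over 4 genes. The sign of that median turned to -0.026 with quantile normalization, -0.020 with loess and -0.034 after subtracting the like-signal median. SESN2, a sestrin that restrains mTORC1, read 1383 on the array labelled PGR siRNA and 1190 on the array labelled control, a difference of 0.22, with its second probe set at 0.27. TRIB3, a pseudokinase that binds AKT, read 14411 on the array labelled PGR siRNA and 13581 on the array labelled control, a difference of 0.086. ASNS, asparagine synthetase, read 25154 on the array labelled PGR siRNA and 25435 on the array labelled control, a difference of -0.016. CHAC1, which degrades glutathione, read 2413 on the array labelled PGR siRNA and 2544 on the array labelled control, a difference of -0.076. SESN2 was the farthest from 0 of these 4 genes, and neither ATF4 nor DDIT3 was as far from 0.

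Among the last 3 members, SEC61B, a subunit of the translocation channel, read 15976 on the array labelled PGR siRNA and 13003 on the array labelled control, a difference of 0.30 above the band, or 0.68 with a dim probe set averaged in. WFS1, a membrane protein of ER calcium handling, read 1039 on the array labelled PGR siRNA and 879 on the array labelled control, a difference of 0.24, with its second probe set at 0.26. SEC24D, a cargo adaptor of the COPII coat that carries proteins out of the ER, read 1088 on the array labelled PGR siRNA and 1506 on the array labelled control, a difference of -0.47 and the lowest of all members. Its other probe sets were at or below the floor on at least 1 array, at -0.75 and -0.20.

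**Figure D3:**
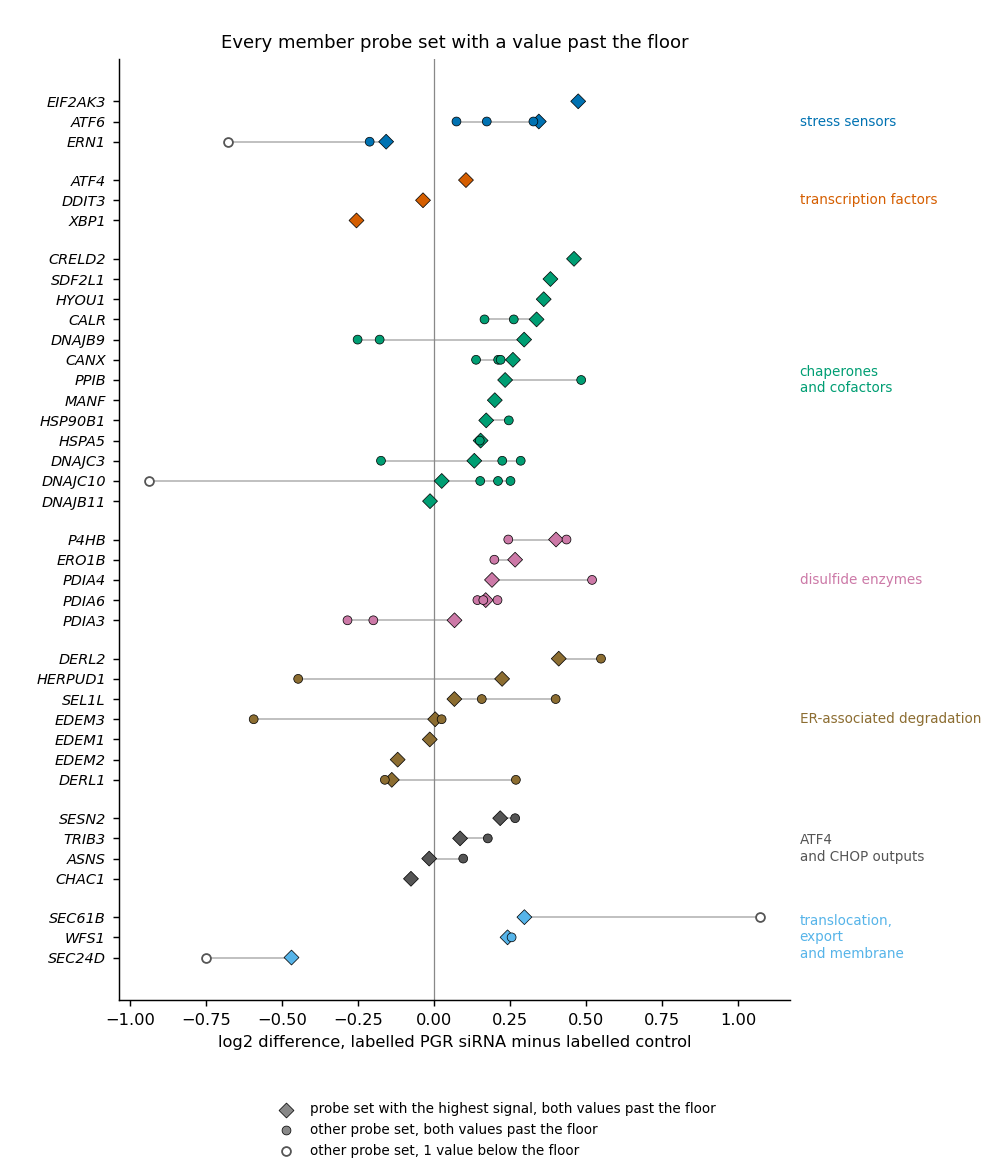
Log2 difference (array labelled PGR siRNA minus array labelled control) of every member probe set with a value above the floor, in rows by gene and role. Diamonds mark the probe set that reads the gene, filled circles other probe sets with both values above the floor and open circles those with 1 value below it. The probe sets of CANX, P4HB, PDIA6 and ATF6 lie on 1 side of 0, while those of DNAJB9, PDIA3, EDEM3 and HERPUD1 fall on both.

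Other probe sets of the same genes gave a reading within the arrays, though no measure of spread between cultures. Of 92 member probe sets, 79 had both values above the floor, and 60 of these were above 0 with a median of 0.17, where 51.4% of 19569 probe sets of all genes were above 0 with a median of 0.0093. Of 24 members with several such probe sets, 16 had all of them above 0, 1 had all below 0 and 7 were mixed. Over 5203 genes with several such probe sets, 23.6% had all above 0, 21.5% had all below 0 and 54.9% were mixed. Probe sets of the same gene differed by an SD of 0.17 among members and of 0.26 among all genes, so a single member's difference was often no larger than this disagreement. The 7 mixed members were ASNS, DERL1, DNAJB9, DNAJC3, EDEM3, HERPUD1 and PDIA3.

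Members with an ERSE or ERSE-II in the promoter window had a median difference of 0.26 over 11 genes, 10 of them above 0 and 4 above the band. Among all genes the shares were 53.2% above 0 and 5.5% above the band. The 24 other members with a promoter had a median of 0.12, with 17 above 0 and 5 above the band. Only 35 members past the floor had a promoter, and SEC24D, the lowest of all members, was not among them. With the like-signal median subtracted, the medians were 0.14 for members with a match and 0.058 for those without. Within the chaperones and disulfide enzymes, where most of the matches lie, the median was 0.27 over 9 genes with a match and 0.20 over 8 without. Outside the members, 7 further genes past the floor held an ERSE, with a median of 0.14 and 5 above 0, among them SERP1, which stabilises new membrane proteins, at 0.21, and FICD, which modifies BiP, at -0.065. The 12 other genes with an ERSE-II had a median of 0.038 and 7 above 0, from -0.61 for NUCB1 to 0.59 for CNKSR1. A match is a description of the letters, and no binding was measured here.

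Other genes of the secretory pathway, of unfolded protein response signalling and of ATF4-driven amino acid supply, from 7 lists that share no gene with the members, together gave a median of 0.099 over 149 genes, with 104 above 0, 18 above the band and 5 below it. Of all genes, 53.2% were above 0, 5.5% above the band and 5.41% below it. With the like-signal median subtracted, the median of the 149 genes was 0.073, with 95 above 0. Genes of translocation into the ER had a median of 0.16 over 22 genes, 20 of them above 0 and 5 above the band. Subtracting the like-signal median gave 0.11, with 18 above 0. SEC11C, a catalytic subunit of signal peptidase, read 4142 on the array labelled PGR siRNA and 2954 on the array labelled control, a difference of 0.49, and SEC61A2, a second form of the channel's main subunit, was lowest at -0.22. In sets put together after the values were seen, all 5 signal peptidase subunits were above 0, from 0.084 to 0.49, with 2 above the band. All 4 subunits of the signal sequence receptor were above 0, from 0.080 to 0.37, with 1 above the band. The lowest of each, SPCS1 and SSR1, stood at percentiles 51.5 and 47.5 of genes of like signal. Further sets had exceptions. Above 0 were 7 of 8 genes of the signal recognition particle and its receptor and 8 of 9 oligosaccharyltransferase subunits. Of SEC61 with SEC62 and SEC63, 4 of 5 were. SEC61A1, the main subunit of the channel that SEC61B belongs to, stood at 0.38.

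Genes of glycosylation and the lectin cycle had a median of 0.15 over 25 genes, 18 above 0 and 5 above the band. The shares over all genes were 53.2% and 5.5%. Once the like-signal median was subtracted, the median was 0.097 and 16 were above 0. GANAB, the glucosidase II subunit that trims glycans for calnexin and calreticulin, read 2509 on the array labelled PGR siRNA and 1673 on the array labelled control, a difference of 0.58. PRKCSH, the other subunit of that enzyme, stood at -0.071, within the band. DDOST, a subunit of oligosaccharyltransferase, read 13994 on the array labelled PGR siRNA and 10122 on the array labelled control, a difference of 0.47, and UGGT1, which tags unfolded glycoproteins for another round of folding, stood at 0.33. No value among the genes of like signal was as high for GANAB or DDOST. TUSC3, another subunit of the transferase and close to the floor, was highest at 0.66 yet within the band, which is wide at that signal, and ALG1, a mannosyltransferase, was lowest at -0.36. Averaging every probe set of a gene lowered the median of this list to 0.073.

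Other folding and redox enzymes had a median of 0.099 over 21 genes, with 16 above 0, where 53.2% of all genes were. Subtracting the like-signal median gave 0.086, with 15 above 0. CRELD1, a relative of CRELD2, was highest at 0.47, and TXNDC12, a thioredoxin-like protein, was lowest at -0.18. PRDX4, the peroxiredoxin of the ER, stood at 0.40 and ERO1A, the counterpart of ERO1B, at 0.13. Other degradation genes had a median of 0.12 over 19 genes, with HM13, signal peptide peptidase, highest at 0.44 and YOD1, a deubiquitinase of VCP, lowest at -0.22.

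COPII export and retrieval genes had a median of 0.094 over 19 genes and were divided, with 11 above 0, where 53.2% of all genes were. Subtracting the like-signal median gave 0.017, again with 11 above 0. SAR1A, a GTPase that starts the coat, read 4965 on the array labelled PGR siRNA and 3564 on the array labelled control, a difference of 0.48. Its counterpart SAR1B stood at -0.061, within the band. The inner coat, which SEC24D belongs to, ran the other way from SAR1A. SEC23B read 4477 on the array labelled PGR siRNA and 5838 on the array labelled control, a difference of -0.38, SEC24B stood at -0.34, SEC24A at -0.21 and SEC23A at -0.19. SEC24C was the exception at 0.20. Over these 6 SEC23 and SEC24 genes, put together after the values were seen, the median was -0.28, with 3 below the band.

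Other genes of unfolded protein response signalling had a median of 0.056 over 21 genes, 12 above 0, none above the band and 1 below it. The shares over all genes were 53.2%, 5.5% and 5.41%. Subtracting the like-signal median gave 0.010, with 11 above 0. BCL2L11, the pro-apoptotic BIM, was highest at 0.34, and MAP3K5, the stress kinase ASK1, was lowest at -0.47. ATF3, a factor that ATF4 raises, stood at -0.11, and PPP1R15A, the GADD34 subunit that reverses eIF2 alpha phosphorylation, at 0.095. ATF4 targets of amino acid supply had a median of 0.032 over 22 genes, 12 above 0, with 2 above and 2 below the band. Its sign turned in 3 settings, to -0.012 under quantile normalization, to -0.0023 under loess and to -0.016 after subtracting the like-signal median, where 9 genes were above 0. ALDH1L2, a mitochondrial folate enzyme, was highest at 0.29 and CTH, of cysteine synthesis, lowest at -0.61.

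**Figure D4:**
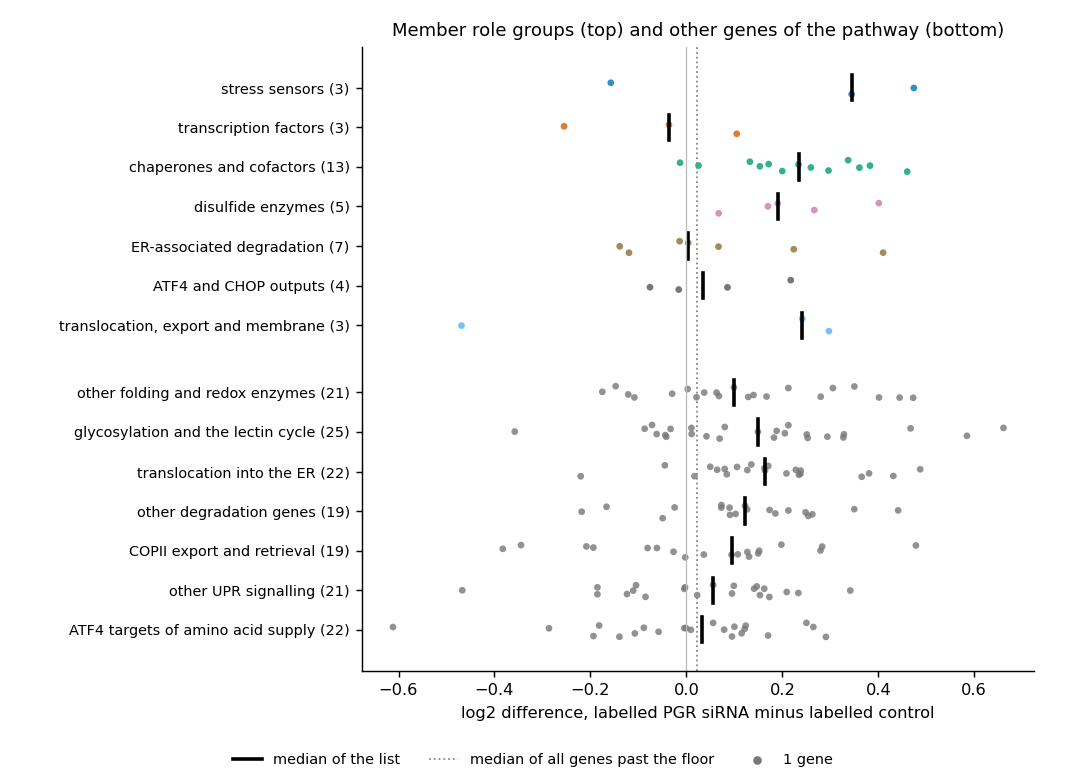
Log2 difference (array labelled PGR siRNA minus array labelled control) of each gene past the floor, with member role groups above and other pathway lists below, and the number of genes in brackets. Black bars are list medians and the dotted line is the median of all genes past the floor, 0.021. Chaperones, disulfide enzymes, translocation and glycosylation lie to the right of that line at 0.23, 0.19, 0.16 and 0.15, while ATF4 targets lie close to it at 0.032.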

How the data were processed

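Biotin-labelled cRNA of 1 culture per condition was hybridised to a 3′ expression array. The authors deposited linear intensity values, 1 per probe set and array, with both arrays at 1 level, and the sources used here name no summarising algorithm. Of 54675 probe sets, 41097 had 1 gene symbol, 1801 several and 11777 none in the platform annotation, and only the first kind was used. For 41043 of these the symbol was brought up to date with RefSeq (GRCh38.p14). Values were compared as log2(intensity + 1). A single array per condition allows no test and no SD between samples, which is what limits precision here. Rules of size were 1.5-fold and a band between the 5th and 95th percentile of the 200 nearest non-member genes in mean signal. The members and lists were chosen with earlier results of these data known. Every member was accounted for. Of other lists, the highest and lowest genes above the floor on both arrays were named, and further genes were named after their values were seen. Alternatives were the mean of all probe sets, unmarked probe sets, median centring, quantile normalization, loess, an offset of 16, other floors and 500 genes of like signal. Protein sequences were not used here. The calculation was tested on simulated data, with added differences larger than that of any member. Python 3.11.15, numpy 2.4.6, pandas 2.3.3, statsmodels 0.14.6 and matplotlib 3.10.9 were used.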

Additional observations from a re-analysis of the deposited data

How the results depend on the processing

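The median difference of the members was above 0 in every setting tried, between 0.10 and 0.22, against 0.17 as reported. It was 0.22 with median centring, 0.12 with quantile normalization, 0.13 with loess and 0.10 after subtracting the median of genes of like signal. The members above 0 numbered 32 with median centring and 25 with quantile normalization, against 28 as reported. The number above the band ran from 8 to 10, and with 500 genes of like signal 1 member lay below the band. When every probe set of a gene was averaged, dim ones included, 1 member was at least 1.5-fold higher, SEC61B at 0.68, and 1 at least 1.5-fold lower, XBP1 at -1.67. Of the 38 members, 25 kept their sign in every setting tried. CANX turned to -0.44, DERL1 to 0.53, HERPUD1 to -0.11 and DNAJB9 to -0.045 under that averaging, and PDIA4 read 0.52 with the probe set without a mark of shared sequence. The chaperone median was 0.16 with quantile normalization and 0.12 after subtracting the like-signal median. Glycosylation genes had a median of 0.073 under averaging, 0.086 after quantile normalization and 0.089 when averaging took only probe sets above the floor on both arrays, a setting added after seeing the data. The translocation median was 0.095 under either averaging, and the COPII median was 0.019 under the first averaging and 0.017 after subtracting the like-signal median. The cause of these shifts was not tested. No paired analysis was possible because each condition has 1 array.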
